A study of Mus musculus with 16 samples.

Results

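The genes described here are those of glycolysis, glucose and lactate transport and the response to low oxygen, measured in sorted mouse brain cells after an experimental stroke. A list of 37 gene symbols was looked up in the expression table. Of these, 36 had a row among the 13982 genes of the table, and all 36 reached at least 1 FPKM (a read measure corrected for transcript length and library size) in at least 4 of 16 libraries, as did 10846 genes in all. The remaining symbol, Adm, was not analysed here. By role, the 36 genes were 4 hexose transporters, 17 glycolytic enzymes including the lactate dehydrogenases, 2 monocarboxylate transporters, 3 regulatory kinases, the transcription factor gene Hif1a with 2 prolyl hydroxylases, and 7 targets of that factor.

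RNA was sequenced from cells of the mouse cortex that were stained for CD45 and CD11b, sorted by flow cytometry and labelled as microglia. All mice were labelled C57BL/6, with 4 libraries in each of 4 groups. Sham mice were labelled untreated. MCAO mice had middle cerebral artery occlusion, which blocks a large artery of the brain. The other two groups had the same occlusion and received exosomes, small secreted vesicles, labelled Ctrl-exos or AS-exos. The exosomes came from the plasma of Apoe knockout mice kept on a western diet, which the labels give for 12 weeks as a model of atherosclerosis, or on a normal diet. They were injected into a tail vein at 150 µg, at intervals of 3 days beginning with the operation. The labels name no diet for either exosome group, no interval from occlusion to sorting, and no link from libraries to mice. The p-values below therefore measure the spread between libraries, which may be technical.

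Glycolysis splits glucose into pyruvate in the cytosol, and lactate dehydrogenase turns pyruvate into lactate, which leaves the cell through monocarboxylate transporters. Most steps can be carried out by several isozymes encoded by separate genes, and cell types differ in which they use. When oxygen is low, prolyl hydroxylases stop marking the HIF-1α protein for destruction, and the factor then binds an ACGTG core in the promoters of many glycolytic genes. Myeloid cells also raise glycolysis when they are activated.

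The sorted cells differed in their markers between Sham and the 3 occlusion groups. Summed over 10 homeostatic microglia markers such as P2ry12 and Tmem119, the level was 20889.5 to 22855 FPKM in Sham libraries and 981 to 1800.1 in MCAO libraries, and all 10 markers fell (limma, adjusted p below 0.05). The 10 monocyte markers such as Ly6c2 and Ccr2 summed to 217 to 614 FPKM in Sham and 9401 to 13495 in MCAO, and all 10 rose. Of 8 border macrophage markers 7 rose, from sums of 13.8 to 69.3 FPKM to sums of 1794 to 4324. Of 7 neutrophil markers tested 5 rose, with sums of 76.7 to 144 FPKM in Sham and 1632 to 9702 in MCAO, while Ly6g was at 0 in every library of both groups. Of the 2 tested astrocyte markers 1 fell and 1 rose: Slc1a3 had a mean of 76.2 FPKM in Sham and 0.405 in MCAO, and Gja1 0.005 and 7.47. The astrocyte sum was 57.8 to 107 FPKM in Sham and 3.62 to 14.4 in MCAO. Neuron markers summed to at most 5.37 in any library. In pooled cells, a change in the mix of cell types cannot be told apart from a change in RNA per cell. The part of these markers in the results below was not tested. Library totals lay between 758283 and 983648 FPKM, and sequencing depth could not be read from values without counts. The fourth MCAO+AS-exos library had a mean correlation of 0.915 with the rest of its group, against 0.956 to 0.962 for the other three, and the first MCAO+Ctrl-exos library one of 0.914 against 0.925 to 0.929, so results on these groups are also given without them.

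The bases upstream of 6 genes are shown as examples of contrasts in the data: a pair of isozyme genes that moved in opposite directions, the transporter gene with the largest change, and 3 HIF target genes of which 1 rose and 2 fell after occlusion. Other genes with large changes, such as Pkm, Pfkp and Vegfa, are not shown. Each run is the 250 bases before the annotated start, read 5′ to 3′ on the strand of the gene, from RefSeq on build GRCm38.p6, and capitals mark every ACGTG or its reverse complement CACGT. Where both overlap as CACGTG, 6 bases are in capitals.
Ldha (chr7:46845554-46845803, plus strand): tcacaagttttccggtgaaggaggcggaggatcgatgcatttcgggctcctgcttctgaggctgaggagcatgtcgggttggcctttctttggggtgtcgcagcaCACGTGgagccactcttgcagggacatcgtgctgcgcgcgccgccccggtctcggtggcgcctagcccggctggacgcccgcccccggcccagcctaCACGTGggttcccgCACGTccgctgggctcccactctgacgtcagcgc
Ldhb (chr6:142507958-142508207, minus strand): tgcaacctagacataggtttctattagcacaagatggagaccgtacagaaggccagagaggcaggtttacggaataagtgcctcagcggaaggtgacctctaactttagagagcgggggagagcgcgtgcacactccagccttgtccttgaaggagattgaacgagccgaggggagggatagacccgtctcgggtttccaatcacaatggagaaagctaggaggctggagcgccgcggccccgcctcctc
Slc2a5 (chr4:150119094-150119343, plus strand): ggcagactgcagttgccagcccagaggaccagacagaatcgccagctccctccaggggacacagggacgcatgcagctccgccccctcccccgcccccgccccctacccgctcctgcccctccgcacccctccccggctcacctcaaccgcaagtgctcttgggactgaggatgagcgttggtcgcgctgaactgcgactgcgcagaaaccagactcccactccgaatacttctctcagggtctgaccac
Ddit4 (chr10:59951771-59952020, minus strand): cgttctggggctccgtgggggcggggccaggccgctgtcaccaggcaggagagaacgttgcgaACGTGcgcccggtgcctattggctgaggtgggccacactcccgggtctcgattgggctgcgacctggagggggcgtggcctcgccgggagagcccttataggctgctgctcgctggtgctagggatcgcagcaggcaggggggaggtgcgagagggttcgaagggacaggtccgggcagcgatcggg
P4ha1 (chr10:59323046-59323295, plus strand): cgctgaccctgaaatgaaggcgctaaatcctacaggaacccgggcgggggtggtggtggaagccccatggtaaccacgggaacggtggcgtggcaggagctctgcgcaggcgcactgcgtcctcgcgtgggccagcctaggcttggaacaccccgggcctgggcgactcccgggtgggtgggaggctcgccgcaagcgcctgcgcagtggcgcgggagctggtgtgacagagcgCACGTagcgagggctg
Bnip3 (chr7:138909507-138909756, minus strand): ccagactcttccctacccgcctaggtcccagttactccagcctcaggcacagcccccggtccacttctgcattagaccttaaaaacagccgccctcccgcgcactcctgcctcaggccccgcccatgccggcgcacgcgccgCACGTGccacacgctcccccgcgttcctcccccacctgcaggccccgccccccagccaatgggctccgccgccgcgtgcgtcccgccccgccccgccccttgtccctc
The Ldha window shown held 5 matches, which begin at positions -145, -144, -48, -47 and -34 from the start, while a second annotated Ldha window, at chr7:46846832-46847081, held none. The Bnip3 window held 2 overlapping matches at -108 and -107, the P4ha1 window 1 at -16 and the Ddit4 window 1 at -187. The windows of Ldhb and Slc2a5 held none. Of the 36 listed genes with expression values 34 had a window, and 21 of these (61.8%) had a match in at least 1 window, against 18.5% of 27025 genes in the promoter table. By window, a match was present in 25 of 50, against 16.6% of 32851. The listed genes had a median GC content of 62.2%, against 52.4% for all windows, and 21.6% of windows with at least 55.2% GC held a match. The motif was present in at least 1 window of all 9 HIF-related genes with a window, Bnip3l being the one without a window, and of 8 of 17 glycolytic enzyme genes. For Vegfa only the window at chr17:46025164-46025413 held a match, and the one at chr17:46032378-46032627 held none. The Mxi1 window at chr19:53310256-53310505 also held none. A match is only a run of letters, and the list was drawn up around a pathway known for these sites.

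Occlusion without exosomes came with higher RNA levels of most of the glycolytic pathway. Of the 36 genes, 20 were higher in MCAO than in Sham and 8 were lower at an adjusted p below 0.05 (limma on log2(FPKM + 1) over all tested genes), while 8 did not pass. Across all tested genes 39.2% passed, with 24.5% higher and 14.8% lower. The 4 MCAO values lay wholly above the 4 Sham values for 18 genes and wholly below for 6, against 21.8% and 12% of all genes. The median log2 difference was 1.08 over the listed genes and 0.25 over all tested genes. Among the 17 glycolytic enzymes 13 rose and 2 fell, and among the 10 HIF-related genes 4 rose and 4 fell. With quantile normalization the median of all genes moved from 0.25 to -0.03, and 17 listed genes rose and 8 fell. Over all genes that scaling gave 2084 higher and 2164 lower, where the main scaling gave 2654 and 1600.

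**Figure D1:**
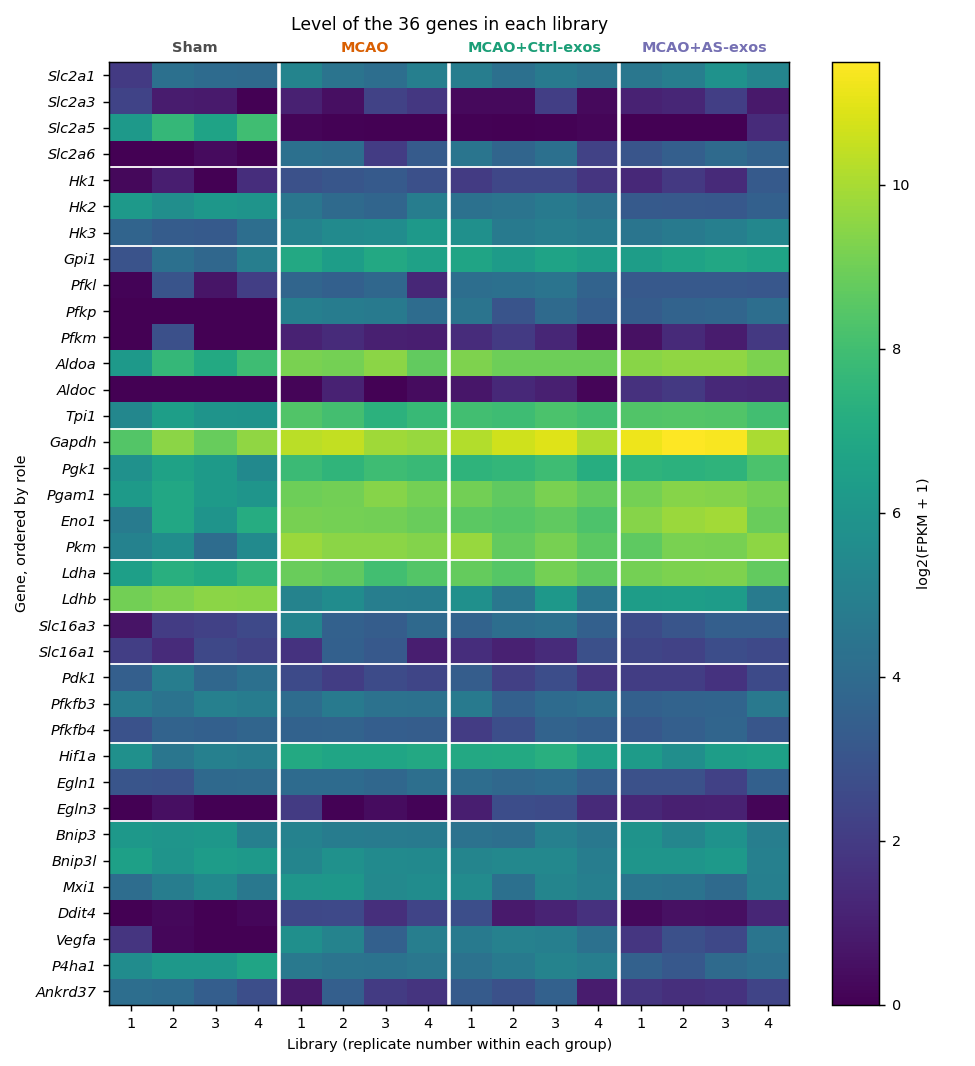
Heat map of log2(FPKM + 1) for the 36 genes (vertical axis, ordered by role) in each of the 16 libraries (horizontal axis, 4 per group). Slc2a5, Hk2 and Ldhb are brightest in the Sham columns, and Pkm, Pfkp and Vegfa in the columns of the occlusion groups.

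**Figure D2:**
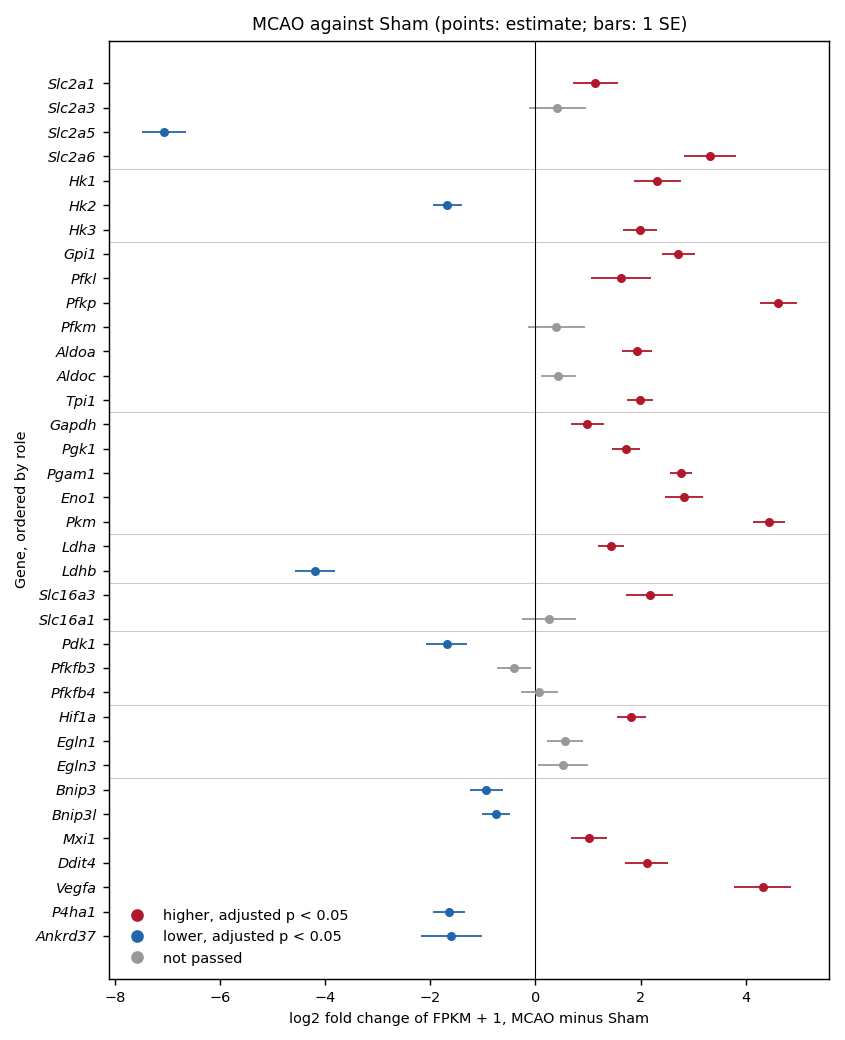
Difference in mean log2(FPKM + 1), MCAO minus Sham, for each of the 36 genes, with bars of 1 standard error from the limma fit. Points run from -7.07 for Slc2a5 to 4.62 for Pfkp, and colour marks whether the gene passed an adjusted p of 0.05.

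The RNA of hexose carriers shifted from Slc2a5 to Slc2a1 and Slc2a6. Slc2a5, which encodes the fructose carrier GLUT5 and is known as a microglial gene in the brain, was at 72.6, 202, 102 and 253 FPKM in the Sham libraries. In the MCAO libraries it was at 0.11, 0.05, 0.00 and 0.03 FPKM. No MCAO library came near the lowest Sham library, and the difference was -7.07 ± 0.42 (log2 ± SE, adjusted p = 5.48e-11). Slc2a5 met the filter of 1 FPKM in 4 libraries only through Sham. Slc2a6, a carrier of macrophages found on lysosomes, was listed at 0 in 3 Sham libraries and at 0.27 in the other. It was at 17.7, 16.4, 3.07 and 8.71 FPKM in the MCAO libraries. The groups did not overlap, and the difference was 3.33 ± 0.50 (adjusted p = 2.51e-05). Slc2a1, the widespread glucose carrier GLUT1, was at 2.89, 18.1, 15.04 and 14.6 FPKM in Sham and at 35.9, 20.3, 16.9 and 30.4 in MCAO. Its groups overlapped, since the third MCAO library was below the second Sham library, and the difference of 1.14 ± 0.43 passed narrowly (adjusted p = 0.0421). Without the first Sham library it was 0.61 and did not pass (adjusted p = 0.171), and the call was also lost without MCAO replicate 1, 2 or 4 or MCAO+AS-exos replicate 2. It was lost as well with quantile normalization, no filter, library weights, length and GC trends removed, the 8 libraries alone or both libraries that stand apart left out (0.83 to 1.14, adjusted p of 0.0533 to 0.158). Slc2a3, the neuronal carrier GLUT3, stayed between 0 and 3.96 FPKM in both groups and did not pass (adjusted p = 0.566). As a share of the FPKM of these 4 carriers, Slc2a5 made up 90.9% ± 3.39 in Sham and 0.102% ± 0.0859 in MCAO (mean ± SD of 4 libraries), and Slc2a1 made up 7.53% ± 3.98 and 66.01% ± 8.17. The family sum was 171 ± 87.6 FPKM in Sham and 39.4 ± 12.8 in MCAO.

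The hexokinases, which trap glucose as glucose 6-phosphate, exchanged places, while their summed level differed by less than the spread between libraries. Hk2, the inducible isozyme, was at 70.9, 50.1, 66.2 and 60.7 FPKM in the Sham libraries and at 21.8, 14.9, 12.6 and 28.4 in the MCAO libraries. All MCAO values were below all Sham values, and the difference was -1.68 ± 0.28 (adjusted p = 8.57e-05). Hk3, an isozyme of myeloid cells, was at 12.1, 9.16, 8.68 and 16.6 FPKM in Sham and at 33.1, 44.1, 47.9 and 72.5 in MCAO. All MCAO values were higher, by 1.98 ± 0.33 (adjusted p = 7.23e-05). Hk1, the constitutive isozyme, went from 0.01 to 1.80 FPKM in Sham to 6.00 to 8.47 in MCAO, a difference of 2.32 ± 0.44 (adjusted p = 0.000353). Hk2 thus made up 83.4% ± 4.91 of the hexokinase FPKM in Sham and 25.7% ± 7.45 in MCAO, and Hk3 made up 15.6% ± 3.91 and 64.5% ± 6.99. The summed hexokinase level was 74.3 ± 10.0 FPKM in Sham and 75.8 ± 20.97 in MCAO.

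In the upper pathway, 5 of 7 genes rose and none fell. Pfkp, the platelet type of phosphofructokinase, was at 0.03, 0.00, 0.02 and 0.03 FPKM in Sham and at 30.2, 27.8, 25.6 and 15.7 in MCAO. It was close to 0 in every Sham library and the leading isozyme of its family in every MCAO library, with a difference of 4.62 ± 0.35 (adjusted p = 2.44e-09). Pfkl, the liver type, was at 0.08, 6.95, 0.59 and 3.34 FPKM in Sham and at 12.6, 10.4, 13.3 and 1.45 in MCAO. The fourth MCAO library was inside the Sham range, and the difference of 1.63 ± 0.57 (adjusted p = 0.0301) did not pass without Sham replicate 1 or 3 or without MCAO replicate 1, 2 or 3 (1.18 to 1.49). It also did not pass with quantile normalization, without a filter, with length and GC trends removed or in a fit of the 8 libraries alone (adjusted p of 0.0553 to 0.109). Pfkm, the muscle type, was at 6.06 FPKM in 1 Sham library and at most at 0.02 in the other three, and it did not pass (adjusted p = 0.592). Pfkl made up 80.3% ± 21.5 of a phosphofructokinase sum of 4.28 ± 6.00 FPKM in Sham, and Pfkp made up 72.3% ± 9.92 of a sum of 35.5 ± 11.7 in MCAO. Aldoa, the main aldolase, held at least 99.6% of the aldolase FPKM in every library. It was at 71.0, 199, 124 and 239 FPKM in Sham and at 572, 546, 710.1 and 421 in MCAO. Its groups did not overlap, with a difference of 1.94 ± 0.28 (adjusted p = 2.06e-05). Aldoc, the brain aldolase that marks astrocytes, was listed at 0 in all Sham libraries and at 0.06 to 1.16 FPKM in MCAO, and did not pass (adjusted p = 0.324). Gpi1, which isomerizes glucose 6-phosphate, and Tpi1, which interconverts the triose phosphates, rose by 2.72 ± 0.32 and 2.0 ± 0.25.

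All 5 genes of the lower pathway, where ATP is made, rose. Pkm, which encodes the last enzyme, pyruvate kinase, was at 33.6, 48.8, 15.9 and 44.6 FPKM in Sham. It was at 880.4, 711, 719 and 661 FPKM in MCAO. Every MCAO library was far above every Sham library, with a difference of 4.44 ± 0.31 (adjusted p = 7.32e-10). Gapdh, the triose phosphate dehydrogenase often used as a reference gene, was at 339, 718, 457 and 774 FPKM in Sham and at 1260.4, 1377, 920.1 and 836 in MCAO. The groups did not overlap and the difference was 0.99 ± 0.31 (adjusted p = 0.0179), the smallest in the lower pathway. It was 0.76 without Sham replicate 1 and 0.87 without MCAO replicate 2, and passed in neither case, and it was 0.50 with quantile normalization (adjusted p = 0.281). Pgam1, Eno1 and Pgk1, which encode phosphoglycerate mutase, enolase and phosphoglycerate kinase, rose by 2.78 ± 0.21, 2.83 ± 0.36 and 1.73 ± 0.27 without overlap. Gapdh, Eno1, Pgk1, Pgam1, Aldoa, Tpi1, Pkm and Ldha have many near-identical pseudogenes in the mouse genome, and their levels are uncertain as far as reads were split between copies.

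The lactate dehydrogenases, which interconvert pyruvate and lactate, moved in opposite directions. Ldhb, the heart-type subunit, was at 534, 608, 719.6 and 709 FPKM in Sham and at 33.8, 47.2, 29.1 and 28.7 in MCAO. Every MCAO library was far below every Sham library, and the difference was -4.19 ± 0.38 (adjusted p = 4.17e-08). Ldha, the muscle-type subunit, was at 88.0, 151, 124 and 187 FPKM in Sham and at 466, 414, 258 and 346 in MCAO. It rose by 1.44 ± 0.25 without overlap (adjusted p = 0.000111). Ldha made up 17.4% ± 3.47 of the lactate dehydrogenase FPKM in Sham and 91.3% ± 1.76 in MCAO, while the family sum was 780.3 ± 119.7 and 405 ± 94.9 FPKM.

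**Figure D3:**
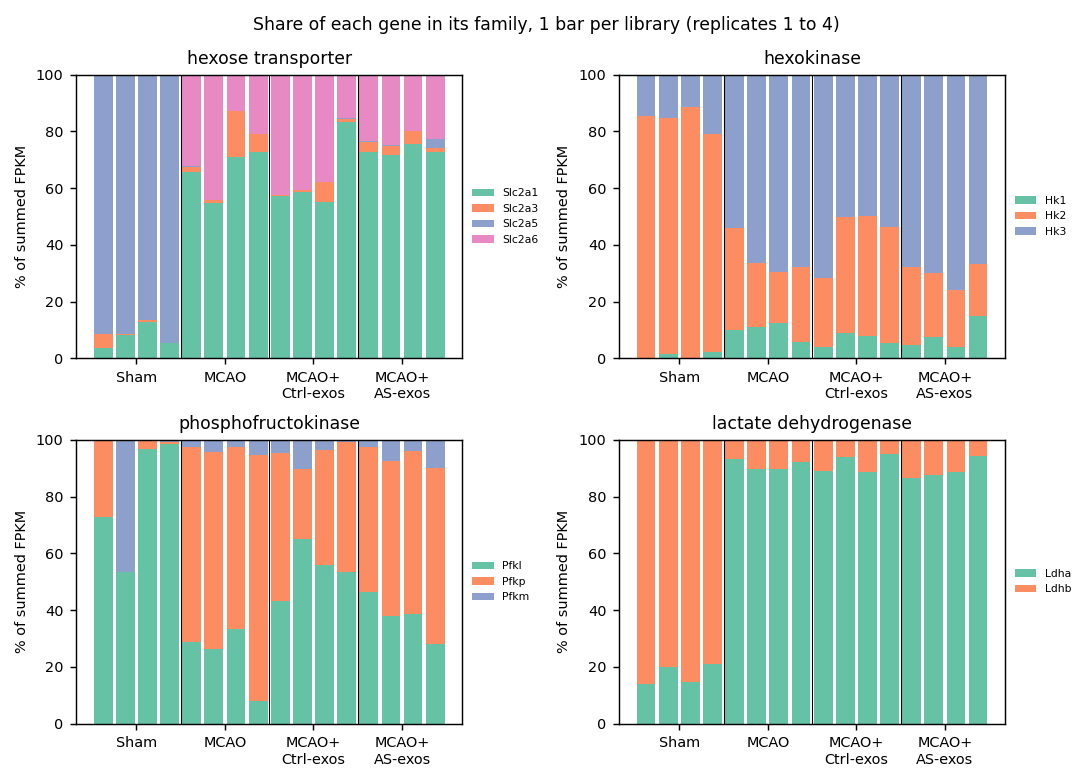
Share of each isozyme in the summed FPKM of its family (vertical axis, percent), as a stacked bar for each library, with 4 libraries per group. Panels show hexokinases, phosphofructokinases, lactate dehydrogenases and hexose carriers. Hk2, Ldhb and Slc2a5 fill most of the Sham bars, with Sham means of 83.4%, 82.6% and 90.9%. They fill a smaller part of the bars of the 3 occlusion groups.

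Of the monocarboxylate transporters, Slc16a3, the lactate exporter MCT4, was at 0.51 to 4.73 FPKM in Sham and at 9.53 to 34.9 in MCAO and rose by 2.18 ± 0.45 (adjusted p = 0.000666). Slc16a1, the carrier MCT1 that works in both directions, was at 1.70 to 4.66 FPKM in Sham and 0.96 to 10.6 in MCAO and did not pass (adjusted p = 0.713). Among the regulatory kinases, Pdk1, which switches off pyruvate dehydrogenase, fell by 1.69 on the log2 scale (adjusted p = 0.00197), from 10.1 to 27.9 FPKM in Sham to 3.19 to 5.21 in MCAO. Pfkfb3 and Pfkfb4, which set the level of the phosphofructokinase activator fructose 2,6-bisphosphate, did not pass, at -0.41 ± 0.32 and 0.08 ± 0.36.

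The HIF-related genes did not move as a block. Hif1a, which encodes the oxygen-regulated subunit, was at 53.5, 21.7, 31.1 and 28.2 FPKM in Sham and at 127, 106, 108 and 121 in MCAO. Each MCAO library was above each Sham library, by 1.82 ± 0.27 (adjusted p = 2.31e-05). Vegfa, the vascular growth factor, was at 2.40, 0.16, 0 and 0 FPKM in Sham and at 51.7, 34.6, 10.4 and 29.0 in MCAO. It rose by 4.33 ± 0.55 (adjusted p = 3.26e-06). Ddit4, whose product restrains mTORC1, was at 0 to 0.20 FPKM in Sham and 1.93 to 4.77 in MCAO and rose by 2.11 ± 0.41 (adjusted p = 0.000403). Mxi1, which encodes an antagonist of MYC, rose by 1.02 ± 0.34 (adjusted p = 0.0218) with overlapping groups, and this call was lost without Sham replicate 1 or MCAO replicate 1 or 2 (0.81 to 0.94).

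P4ha1, a subunit of collagen prolyl hydroxylase, was at 47.1, 69.6, 69.8 and 104 FPKM in Sham and at 24.4, 20.1, 19.7 and 22.2 in MCAO. It fell without overlap by 1.65 on the log2 scale (adjusted p = 0.000229), and its window holds a match 16 bases before the start. Bnip3 and Bnip3l, receptors for the removal of mitochondria, and Ankrd37, an ankyrin repeat gene, had differences of -0.93 ± 0.31, -0.75 ± 0.27 and -1.60 ± 0.58 (adjusted p = 0.0231, 0.0341 and 0.0342). These 3 calls were the ones lost most easily among the genes that fell. Bnip3 was lost without Sham replicate 1, 2 or 3 (-0.87 to -0.81), Bnip3l without Sham replicate 1 or 3 or MCAO replicate 1, 3 or 4 (-0.75 to -0.65), and Ankrd37 without Sham replicate 1, 2 or 3 or MCAO replicate 1, 3 or 4 (-1.66 to -1.19). Removing trends with transcript length and GC content brought Bnip3 to -0.31 and Bnip3l to -0.33, and neither passed. With library weights Bnip3l and Ankrd37 did not pass (adjusted p = 0.0583 and 0.108), nor did Ankrd37 without a filter (adjusted p = 0.0599). The prolyl hydroxylase genes Egln1 and Egln3, which respond to HIF and oppose it, did not pass (adjusted p = 0.199 and 0.405).

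By call, 12 of the 20 genes that rose had an ACGTG core in at least 1 upstream window, as did 4 of the 7 with a window among those that fell and 5 of the 7 among those that did not pass. Vegfa counts here through the window at chr17:46025164-46025413 alone. Those that fell with a match were Ankrd37, Bnip3, Hk2 and P4ha1, and those that fell without were Ldhb, Pdk1 and Slc2a5.

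Neighbouring pathways were read from the same fit, in which 24.5% of all tested genes were higher in MCAO than in Sham and 14.8% lower. In the pentose phosphate pathway, which branches from glucose 6-phosphate, 5 of 8 genes rose and none fell, led by Tkt (2.68 ± 0.37), the transketolase, and Pgd (2.50 ± 0.25), which makes NADPH. Of 13 genes of glycogen metabolism 5 rose and none fell, led by Pygl (3.06 ± 0.35), a glycogen phosphorylase, and Gyg (1.74 ± 0.33), the primer of glycogen. Around the entry of pyruvate into mitochondria 5 of 11 tested genes rose and 1 fell, with Pdp1, a phosphatase that activates pyruvate dehydrogenase, at 1.71 ± 0.50 and Mpc1, a subunit of the pyruvate carrier, at -1.29 ± 0.35. The tricarboxylic acid cycle had 7 higher and 2 lower of 19, among them Idh3g, a subunit of isocitrate dehydrogenase, at -1.96 ± 0.36. Of 20 other tested genes of the HIF pathway 8 rose and 1 fell. Bhlhe40, a transcriptional repressor, went from a mean of 0.040 FPKM in Sham to 68.3 in MCAO, and Hilpda, an inhibitor of lipid breakdown, rose by 3.58 ± 0.38, while the histone demethylase gene Kdm3a fell by 1.91 on the log2 scale. Of 9 other tested glycolytic isozymes and regulators 1 rose and 2 fell, the latter being the muscle enolase Eno3 (-2.08) and the ketohexokinase gene Khk (-1.74). Neither of 2 other tested hexose carriers passed.

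Both exosome groups were also compared with Sham. These comparisons and that of MCAO share the Sham libraries, so their values are set side by side without a measure of likeness. In MCAO+Ctrl-exos 19 genes were higher and 7 lower than in Sham, where 22.1% and 16.6% of all tested genes were (38.7% together), and the median was 1.39 against 0.12. In MCAO+AS-exos 19 were higher and 7 lower, where 20.7% and 19.1% of all genes were (39.8% together), and the median was 1.23 against 0.03. Groups did not overlap for 20 genes higher and 6 lower in MCAO+Ctrl-exos (19.4% and 14% of all genes) and for 17 and 6 in MCAO+AS-exos (19.4% and 17.1%). Slc2a5 differed from Sham by -7.07 in MCAO, -7.05 in MCAO+Ctrl-exos and -6.76 in MCAO+AS-exos. In the same order Ldhb differed by -4.19, -4.08 and -3.34, Pkm by 4.44, 3.97 and 4.05, and Pfkp by 4.62, 3.68 and 3.70. The glycolytic enzymes had 13 higher and 2 lower in MCAO+Ctrl-exos and 14 higher and 2 lower in MCAO+AS-exos. Aldoc passed in MCAO+AS-exos alone (adjusted p = 0.00141), at 1.33 to 2.72 FPKM where Sham was listed at 0. It met the filter of 1 FPKM in 4 libraries only through MCAO+AS-exos, so this call is given as description. Egln3 passed in MCAO+Ctrl-exos alone (1.81 ± 0.47, adjusted p = 0.00491). Ddit4, Bnip3, Bnip3l and Mxi1 passed against Sham in MCAO and not in MCAO+AS-exos, with adjusted p of 0.349, 0.481, 0.186 and 0.506 there. Mxi1 did not pass in MCAO+Ctrl-exos either, with a mean of 32.6 FPKM against 27.5 in Sham. Ddit4 was 2.11 ± 0.41 above Sham in MCAO, 1.48 ± 0.41 in MCAO+Ctrl-exos and 0.51 ± 0.41 in MCAO+AS-exos.

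Summed over the 17 glycolytic enzymes, FPKM made up 0.176 to 0.312% of the library total in Sham, 0.471 to 0.666% in MCAO and 0.375 to 0.596% in MCAO+Ctrl-exos. The first 3 MCAO+AS-exos libraries stood at 0.665, 0.816 and 0.849% and the fourth at 0.531%. Gapdh alone was 38.2 to 40.4% of that sum in those 3 libraries and 23.0% in the fourth.

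**Figure D4:**
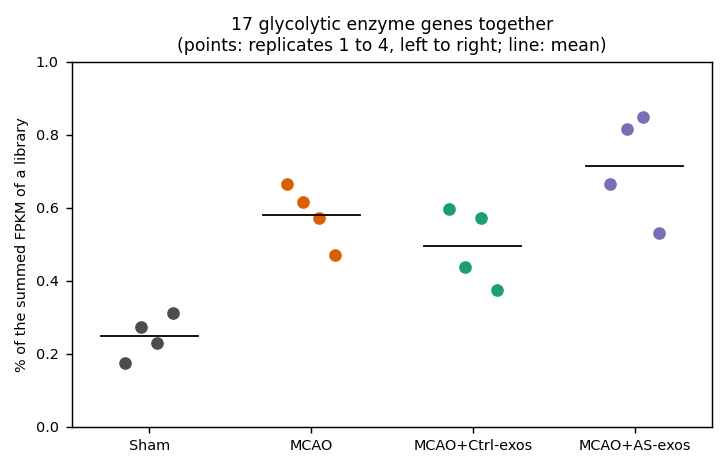
Summed FPKM of 17 glycolytic enzymes as a percentage of the total FPKM of each library (vertical axis), with 1 point per library and 4 per group. All Sham points lie at or below 0.312% and all others at or above 0.375%, and the fourth MCAO+AS-exos library lies below the other three of its group at 0.531%.

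MCAO+Ctrl-exos was next compared with MCAO alone. No listed gene passed in limma, and 0.0738% of all tested genes did, 0.0461% higher and 0.0277% lower. At an unadjusted p below 0.05, 1 gene was higher and 2 were lower, where 10.9% of all genes met that limit. The median difference was -0.12 over the listed genes and -0.14 over all genes. The 6 genes with the smallest p were Egln3, Pfkp, Mxi1, Hk1, Pfkl and Hk3. Egln3 was at 3.01, 0.06, 0.29 and 0.07 FPKM in MCAO and at 0.98, 5.65, 5.09 and 1.61 in MCAO+Ctrl-exos. Its groups overlapped through the first MCAO library, and the difference was 1.29 ± 0.47 (adjusted p = 0.329). Pfkp was at 20.2, 6.90, 14.9 and 9.96 FPKM in MCAO+Ctrl-exos, so that its first library lay within the MCAO range, with a difference of -0.95 ± 0.35 (adjusted p = 0.331). Mxi1, Hk1, Pfkl and Hk3 differed by -0.78, -0.82, 1.02 and -0.57 (adjusted p of 0.406, 0.512, 0.537 and 0.540). Without overlap, 2 genes were lower, Hk1 and Eno1, and none was higher, against 3.99% and 1.99% of all genes. Hk1 stood at 6.00 to 8.47 FPKM in MCAO and 2.43 to 4.53 in MCAO+Ctrl-exos.

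MCAO+AS-exos differed from MCAO in 5 listed genes, all lower: Hk2 and 4 genes of the HIF group. Of all tested genes 6.14% passed, 5.08% lower and 1.06% higher. No test of the list as a whole was run. At an unadjusted p below 0.05, 4 listed genes were higher and 10 lower, where 25.7% of all genes met that limit in either direction. The median was -0.08 over the listed genes and -0.17 over all genes, and over the 10 HIF-related genes it was -0.69. Without overlap 1 gene was higher, Aldoc, and 6 were lower, against 4.29% and 10.1% of all genes. Aldoc met the filter of 1 FPKM in 4 libraries only through MCAO+AS-exos.

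Ddit4 was at 4.58, 4.77, 1.93 and 4.10 FPKM in MCAO and at 0.19, 0.41, 0.40 and 1.37 in MCAO+AS-exos. The groups did not overlap, and the difference was -1.61 ± 0.41 (adjusted p = 0.0343) at levels where the added constant of 1 shrinks it. Mxi1 was at 63.8, 66.9, 40.9 and 47.5 FPKM in MCAO and at 20.96, 20.01, 14.9 and 30.3 in MCAO+AS-exos, lower without overlap (-1.32 ± 0.34, adjusted p = 0.0344). Hk2 was at 8.69, 8.37, 7.94 and 10.6 FPKM in MCAO+AS-exos, all below the lowest MCAO library at 12.6. Its difference was -0.99 ± 0.28 (adjusted p = 0.0445). The prolyl hydroxylase gene Egln1 was at 15.4, 15.2, 13.2 and 17.4 FPKM in MCAO and at 6.18, 6.15, 3.71 and 10.4 in MCAO+AS-exos. It was lower without overlap (-1.17 ± 0.34, adjusted p = 0.0486). Vegfa was at 2.58, 6.06, 4.68 and 21.1 FPKM in MCAO+AS-exos, and the fourth of these lay inside the MCAO range of 10.4 to 51.7. Its difference was -1.91 ± 0.55 (adjusted p = 0.0461).

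Hif1a itself was at 78.7, 50.3, 83.8 and 91.4 FPKM in MCAO+AS-exos, each below the lowest MCAO library at 106, with a difference of -0.63 ± 0.27 that did not pass (adjusted p = 0.15). P4ha1 was likewise below MCAO in every library, at 10.98, 8.0, 14.8 and 18.2 FPKM, and did not pass (-0.75 ± 0.30, adjusted p = 0.128). Aldoc was at 2.14, 2.72, 1.51 and 1.33 FPKM, each above the highest MCAO library at 1.16, and Gapdh was at 2354, 2882, 2682 and 1062. Neither passed, at 1.09 ± 0.34 (adjusted p = 0.0586) and 0.96 ± 0.31 (adjusted p = 0.0693). No enzyme or transporter other than Hk2 passed in this comparison.

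The 5 calls were close to the threshold and depended on single libraries. The number of lower genes was 0 without MCAO replicate 1, 2 or 4 or MCAO+AS-exos replicate 1, 2 or 3. Of all tested genes 0.24%, 0.848% and 0.581% were lower without those MCAO libraries, and 0% in each of those MCAO+AS-exos fits. The number of lower listed genes was 2 without MCAO replicate 3 (0.839% of all genes) or MCAO+Ctrl-exos replicate 2, 3 or 4 (3.08%, 4% and 4.01%). It was 3 without Sham replicate 3 (4.25%). Without Sham replicate 1, 1 listed gene was higher, as were 1.68% of all genes. Without the fourth MCAO+AS-exos library 8 genes were lower and 3 higher, the latter being Aldoc (1.19), Gapdh (1.29) and Ldhb (1.26), and Vegfa was at -2.43. In that fit 14.8% of all tested genes were lower and 3.89% higher, so the counts rose over all genes too. The direction of all 5 genes was the same under every alternative fitted, and Ddit4 passed in 19 of 26 of them, Mxi1 in 16 of 27, Hk2 in 12, Vegfa in 11 and Egln1 in 10. Monocyte markers summed to 26189, 24555 and 26769 FPKM in the first 3 MCAO+AS-exos libraries and to 10181 in the fourth, and neutrophil markers to 6849, 5876, 7190.4 and 3373, against 9401 to 13495 and 1632 to 9702 in MCAO. The monocyte sum was largely Lyz2, with a mean of 6647 FPKM in MCAO and 15112 in MCAO+AS-exos, and Chil3 went from 1107 to 2807. The means of Ly6c2, Ms4a4c and S100a4 were also higher in MCAO+AS-exos than in MCAO. Those of Ccr2, Fn1, F13a1, Plac8 and Vcan were lower in MCAO+AS-exos than in MCAO. No monocyte, neutrophil, border macrophage or homeostatic microglia marker passed between these groups, 1 of 3 tested endothelial markers was higher in MCAO+AS-exos, and their part in the result was not tested.

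**Figure D5:**
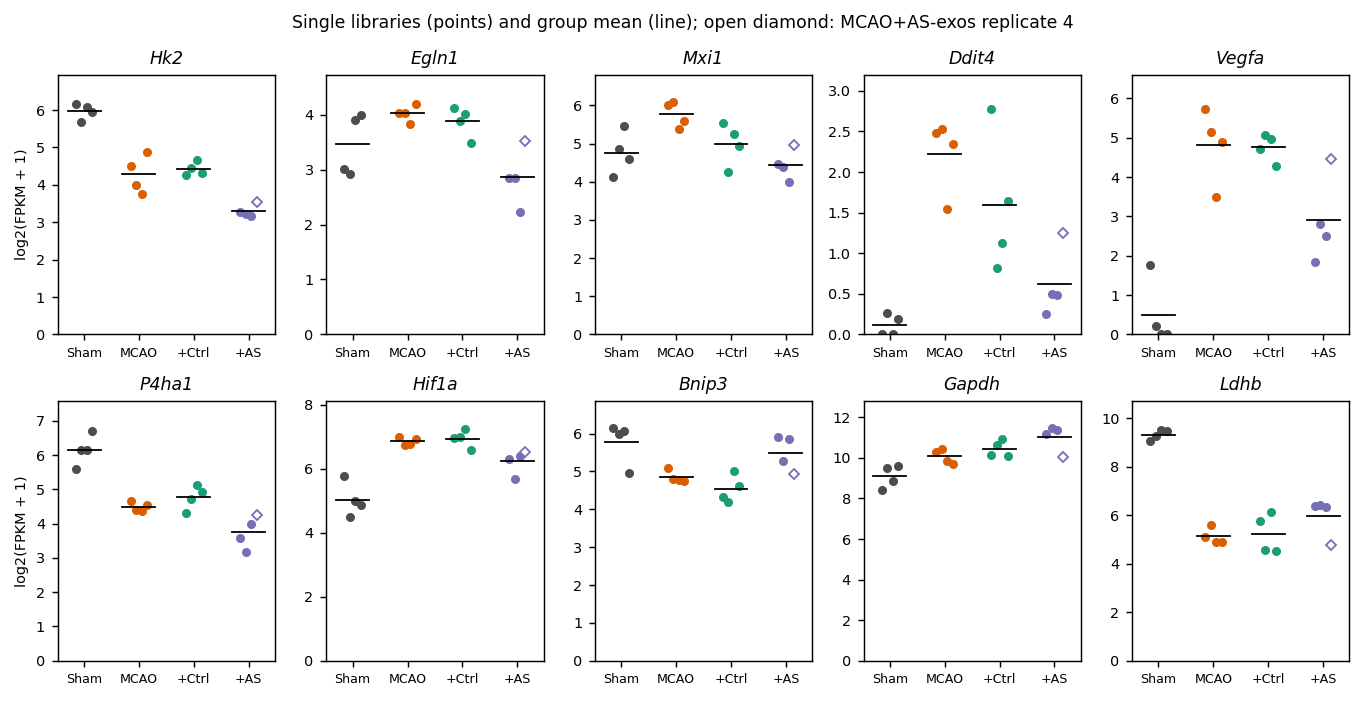
Levels of 10 genes as log2(FPKM + 1) (vertical axes, from 0) in each library of the 4 groups. The line is the group mean of these log2 values, and the fourth MCAO+AS-exos library is an open diamond. Hk2, Egln1, Mxi1, Ddit4, P4ha1 and Hif1a lie lower in MCAO+AS-exos than in MCAO without overlap, and for Vegfa, Gapdh and Ldhb the open diamond lies apart from the other 3 points of its group.

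The direct comparison of the exosome groups asks whether the source of the exosomes made a difference after occlusion. No listed gene passed in limma between MCAO+AS-exos and MCAO+Ctrl-exos, and 0.286% of all tested genes did, 0.157% higher and 0.129% lower. At an unadjusted p below 0.05, 4 listed genes were higher and 7 lower, where 19.6% of all genes met that limit. The median was 0.05 over the listed genes and -0.08 over all genes. Hk2 had the smallest p. It was at 18.4, 20.7, 24.6 and 18.9 FPKM in MCAO+Ctrl-exos and at most 10.6 in MCAO+AS-exos. All MCAO+AS-exos libraries were lower, with a difference of -1.13 ± 0.28 (adjusted p = 0.0654).

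P4ha1 was at 18.9, 25.5, 34.1 and 29.6 FPKM in MCAO+Ctrl-exos, all above the MCAO+AS-exos libraries, with a difference of -1.03 ± 0.30 (adjusted p = 0.0854). Vegfa was at 25.2, 32.4, 30.1 and 18.6 FPKM in MCAO+Ctrl-exos, and the fourth MCAO+AS-exos library at 21.1 lay among them, with a difference of -1.85 ± 0.55 (adjusted p = 0.0862). Bnip3 was at 19.0, 17.3, 31.5 and 23.4 FPKM in MCAO+Ctrl-exos and at 59.6, 37.5, 57.0 and 29.4 in MCAO+AS-exos. Only the fourth of the latter overlapped, and the difference was 0.96 ± 0.31 (adjusted p = 0.106). Egln1 was at 16.4, 13.8, 15.1 and 10.2 FPKM in MCAO+Ctrl-exos and differed by -1.02 ± 0.34 (adjusted p = 0.113), with overlap at the fourth library. Eno1 was at 391, 349, 410.1 and 308 FPKM in MCAO+Ctrl-exos and at 683, 869, 955 and 470.2 in MCAO+AS-exos. It was the sole gene higher without overlap (0.99 ± 0.36, adjusted p = 0.144), while 5 genes were lower without overlap, namely Hk2, Pfkl, Slc16a3, Hif1a and P4ha1, against 5.19% and 5.02% of all genes.

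Without the fourth MCAO+AS-exos library, 4 genes passed as higher than in MCAO+Ctrl-exos, namely Bnip3 (1.15), Bnip3l (0.83), Gapdh (0.91) and Ldhb (1.15). In the same fit 4 passed as lower, namely Egln1 (-1.24), Hk2 (-1.21), P4ha1 (-1.20) and Vegfa (-2.37). Of all tested genes 3.52% were higher and 8.44% lower in that fit, against 0.157% and 0.129% with all libraries. Leaving out the first MCAO+Ctrl-exos library as well left Bnip3l and Ldhb higher, by 0.84 and 1.32, and Hk2, P4ha1 and Vegfa lower, at -1.26, -1.35 and -2.38. Of the marker lists, 1 of 10 homeostatic microglia markers was higher in MCAO+AS-exos than in MCAO+Ctrl-exos, and no monocyte, border macrophage or neutrophil marker passed.

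In the neighbouring pathways, no gene passed between MCAO+Ctrl-exos and MCAO or between the exosome groups. The tested genes were 19 of the tricarboxylic acid cycle, 20 of the HIF pathway, 13 of glycogen metabolism and 8 of the pentose phosphate pathway. A further 11 were around pyruvate entry, 9 were glycolytic isozymes and regulators, and 2 were hexose carriers. Of these, 6 passed in MCAO+AS-exos against MCAO, where 6.14% of all tested genes did. Their number is not read as a result about these pathways. Higher were 2 genes of the tricarboxylic acid cycle, Idh3g (1.47 ± 0.36, adjusted p = 0.0323) and the succinate dehydrogenase subunit gene Sdhb (0.82 ± 0.24, adjusted p = 0.0467). Lower were Egln2 (-1.50 ± 0.42, adjusted p = 0.0421), which encodes the third HIF prolyl hydroxylase, the adenylate kinase gene Ak4 (-1.20 ± 0.36, adjusted p = 0.0498), the phosphorylase kinase subunit gene Phka1 (-1.85 ± 0.39, adjusted p = 0.0218) and Rpia (-2.42 ± 0.48, adjusted p = 0.0197), the ribose phosphate isomerase. Egln2 stood at 48.2 ± 1.93 FPKM in MCAO, 48.2 ± 18.5 in MCAO+Ctrl-exos and 18.6 ± 12.0 in MCAO+AS-exos. All 6 calls were lost without MCAO+AS-exos replicate 1, 2 or 3, each taken alone. In those fits 0 of all 10846 genes were lower, and 2, 0 and 0 were higher, in that order. Of 16 fits that each left out 1 library, Idh3g passed in 11, Sdhb in 5, Egln2 in 8, Ak4 in 3, Phka1 in 12 and Rpia in 12, with adjusted p of up to 0.172 for Ak4. Their differences kept their direction, at 1.04 to 1.69 for Idh3g, 0.71 to 1.02 for Sdhb, -1.86 to -1.27 for Egln2, -1.48 to -0.90 for Ak4, -2.08 to -1.58 for Phka1 and -2.89 to -2.10 for Rpia. The calls of Idh3g, Sdhb, Egln2, Ak4 and Phka1 were lost without MCAO replicate 1, where 0.24% of all genes were lower and 0.101% higher. Those of Idh3g, Sdhb, Egln2, Ak4 and Rpia were lost without MCAO replicate 4, where 0.581% were lower and 0.111% higher. The calls of Sdhb, Egln2 and Ak4 were also lost without MCAO replicate 2 or 3 or MCAO+Ctrl-exos replicate 2, those of Sdhb and Ak4 without Sham replicate 2 or 3 or MCAO+Ctrl-exos replicate 3, and that of Ak4 without Sham replicate 4 or MCAO+Ctrl-exos replicate 4.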

How the data were processed

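Groups were taken from the sample titles. The deposited values are FPKM, fragments scaled by transcript length and library size by the authors. This unit was inferred from the totals, which differ between libraries, so that TPM values for part of the genes remain possible. The submitters' processing notes name HISAT2, Bowtie2, RSEM 1.3.1 and build GRCm39.p6 with no role or order, and the annotation and filters are not given in the sources used here. Per the labels, libraries were made from amplified cDNA by a transposon method. The 16 single-library tables equalled the joint table, values had 2 decimals, and without counts no counting error was computed.

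Values were taken as log2(FPKM + 1), a scale that understates changes of low genes. Genes had to reach 1 FPKM in 4 libraries, which 10846 of 13982 did. Slc2a5 met this limit only through Sham and Aldoc only through MCAO+AS-exos. All 16 libraries entered a single model with a mean for each of 4 groups, in limma 3.58.1 under R 4.3.3 (lmFit, eBayes with trend and robust). Two-sided p-values were adjusted over all genes tested by the Benjamini-Hochberg method, at a threshold of 0.05. The fit was checked on simulated data. Standard errors are from the fit, and levels are mean ± SD of 4 libraries. Isozyme shares are shares of summed FPKM.

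The members, the lists and the roles were chosen with earlier results of these data known, so no list was tested as a whole. Library values are given for the 6 largest changes between MCAO and Sham, for isozymes of each family and for members past the threshold among the occlusion groups, or the 6 with the smallest p where fewer than 3 passed. Of other lists the 2 largest changes in MCAO against Sham that passed are named, except that 1 result is not reported here. Other genes given by library, such as Hif1a, were chosen after their values were seen.

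Promoter windows came from RefSeq on GRCm38.p6, with 34 members matched by symbol. Transcript lengths and GC content came from GENCODE M21, matched by symbol for 13494 genes and all 36 members, a build other than that of the files. Alternatives were another scaling, pseudocount and filter, limma without trend, library weights, a replicate block, a fit of 8 libraries, removal of length and GC trends, and leaving out libraries. Libraries of equal replicate number in different groups had residual correlations from -0.148 to 0.0923, so no shared effect was seen. Whether the numbers mark pairs or batches is not known.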

Additional observations from a re-analysis of the deposited data

Results flagged for a closer look

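In each group of 4 libraries a library was noted where its gap to the nearest other library was too large a part of the range of the group by Dixon's criterion. Of 144 combinations of gene and group 16 met this. The criterion is set to flag about 1 in 20 by chance for normally distributed values, which these are not. Where the other libraries were equal, as for Egln3 and Slc2a6 in Sham and Slc2a5 in MCAO+AS-exos, any gap meets it. Aldoc in Sham, at 0 throughout, could not meet it. The count was therefore not compared with that rate. Of the 16, 6 were in the fourth MCAO+AS-exos library. There Bnip3l stood at 31.1 FPKM where the other three had 61.9 to 70.5, Ldhb at 26.1 against 80.4 to 85.6, and Tpi1 at 258 against 326 to 340.2. In the same library Pfkfb3 stood at 24.2 FPKM against 10.6 to 11.9, Pgk1 at 298 against 167 to 179, and Slc2a5 at 1.63 against 0.02 in each of the others.

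In Sham, the first library had Slc2a1 at 2.89 FPKM where the others had 14.6 to 18.1, and Vegfa at 2.40 against 0 to 0.16. The second had Pfkm at 6.06 FPKM against 0 to 0.02 and Egln3 at 0.39 where the others were listed at 0. The third had Slc2a6 at 0.27 FPKM where the others were listed at 0, and the fourth had Bnip3 at 30.1 against 62.1 to 69.7. In MCAO, the first library had Egln3 at 3.01 FPKM against 0.06 to 0.29, and the fourth had Pfkl at 1.45 against 10.4 to 13.3. In MCAO+Ctrl-exos, the first library had Aldoa at 625 FPKM against 489 to 503, and the third had Slc2a3 at 3.39 against 0.21 to 0.24.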

How the results depend on the processing

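No called gene changed direction under any alternative. The calls of 21 of 28 genes in MCAO against Sham, 23 of 26 in MCAO+Ctrl-exos against Sham, 21 of 26 in MCAO+AS-exos against Sham and 0 of 5 in MCAO+AS-exos against MCAO held under all of them. The median of the listed genes in MCAO against Sham (1.08) was 1.44 with a minimum of 5 FPKM and 1.63 with a pseudocount of 0.1. For MCAO+Ctrl-exos against Sham (1.39) it was 1.05 with quantile normalization, 1.17 with equal totals, 1.60 with the pseudocount of 0.1, 0.96 with length and GC trends removed, and 1.12 without the fourth MCAO+AS-exos and first MCAO+Ctrl-exos libraries. For MCAO+AS-exos against Sham (1.23) it was 1.70 with that pseudocount and 1.04 with library weights, and for MCAO+AS-exos against MCAO (-0.08) it was 0.11 with quantile normalization. In MCAO+AS-exos against MCAO, 0 genes were higher and 5 lower. There 1 was higher with quantile normalization, without a filter or in limma without trend (0.885%, 0.816% and 0.747% of all genes). Library weights gave 6 higher (1138 of all 10846 genes) and leaving out those 2 libraries 3 (4.28%). In the same comparison 1 gene was lower with quantile normalization (2.05% of all genes) or with length and GC trends removed (2.97%). The pseudocount of 0.1 gave 3 lower (4.39%) and library weights 12 (26%). A fit of the 8 libraries compared gave 0 lower (0.166%) and leaving out those 2 libraries 8 (15.6%). Between the exosome groups, with 0 calls, library weights gave 8 higher and 8 lower (11.3% and 18.8% of all genes), and leaving out those 2 libraries gave 2 and 3 (3.28% and 6.75%). The causes of these differences were not tested, and some of the fits had fewer libraries.

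With the replicate number as a block, 1 gene was lower in MCAO+AS-exos than in MCAO (3.52% of all genes), and Slc2a1 did not pass in MCAO against Sham (adjusted p = 0.0528). Libraries of equal number showed no shared effect in their residuals, and it is not known whether the numbers mark pairs.

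Leaving out 1 library at a time gave, in MCAO against Sham, 16 to 21 higher and 5 to 8 lower genes and a median of 0.83 to 1.27, with 5 lower without Sham replicate 1 or 3. In MCAO+Ctrl-exos against Sham it gave 19 to 21 higher, 7 lower and 1.12 to 1.48, and in MCAO+AS-exos against Sham 16 to 20, 5 to 7 and 0.97 to 1.31. In MCAO+Ctrl-exos against MCAO it gave 0 calls and -0.20 to -0.01. In MCAO+AS-exos against MCAO it gave 0 to 3 higher, 0 to 8 lower and -0.16 to 0.00, and between the exosome groups 0 to 4 higher, 0 to 4 lower and -0.11 to 0.16. Over all tested genes 0 to 3.89% were higher and 0 to 14.8% lower in the former. In the latter 0.00922 to 3.52% were higher and 0 to 8.44% lower. With 4 libraries a group and unknown depth, differences in genes near 1 FPKM such as Aldoc, Egln3 and Slc2a3 were not resolved well.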
